A study of Mus musculus with 12 samples.

Results

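The Hedgehog pathway genes described here are 9 genes of the mouse, taken by symbol from the count table: the ligand Ihh, the receptor Ptch1, the signal transducer Smo, the coreceptors Boc and Cdon, the ligand-binding inhibitor Hhip and the transcription factors Gli1, Gli2 and Gli3. They are 9 of the 47729 genes listed, and each matched 1 identifier. RNA was sequenced from mesenchymal cells sorted by flow cytometry from uteri of healthy cycling female mice of the strain Pdgfrb-BAC-eGFP, in which a bacterial artificial chromosome carries a green fluorescent protein reporter for Pdgfrb. The 6 Naive libraries hold GFPtotal cells, that is GFPhigh perivascular cells together with GFPlow stromal fibroblasts, and the 6 Stromal libraries hold the GFPlow cells alone, which the sample labels call GFPdim. Both groups carry the reporter and neither was treated. The sources used here do not give the ages of the mice, the stage of the cycle or the share of GFPhigh cells in a Naive library.

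Hedgehog ligands are secreted proteins that bind Patched receptors on the receiving cell. Patched without ligand holds Smoothened inactive, and ligand binding releases Smoothened, which acts at the primary cilium to turn Gli2 and Gli3 from repressors towards activators. Gli1, Ptch1 and Hhip are themselves transcribed in response to the pathway, so that Gli1 amplifies the signal while Ptch1 and Hhip limit it. In the uterus, Ihh is made by the epithelium under progesterone and acts on the stroma beneath, where Ptch1 and Nr2f2 respond.

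Ptch1 and Hhip are shown by the 250 bases before their RefSeq start sites (GRCm38.p6, both on the minus strand), because both are feedback genes of the pathway and Ptch1 had the highest level of any member in a single library. Capitals mark CCACCC or its reverse complement GGGTGG, the centre of the consensus GACCACCCA that Gli proteins bind. Both windows hold 0 exonic bases of the gene models in the files. The Ptch1 window, chr13:63565736-63565985, lies in an intron of the longer gene model and is 78.4% G and C. The Hhip window, chr8:80058009-80058258, is 76.0% G and C.
Ptch1: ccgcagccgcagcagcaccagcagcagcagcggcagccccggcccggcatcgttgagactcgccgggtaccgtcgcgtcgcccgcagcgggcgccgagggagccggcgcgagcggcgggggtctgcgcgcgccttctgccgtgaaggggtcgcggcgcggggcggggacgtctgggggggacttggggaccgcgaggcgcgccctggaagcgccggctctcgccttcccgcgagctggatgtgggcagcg
Hhip: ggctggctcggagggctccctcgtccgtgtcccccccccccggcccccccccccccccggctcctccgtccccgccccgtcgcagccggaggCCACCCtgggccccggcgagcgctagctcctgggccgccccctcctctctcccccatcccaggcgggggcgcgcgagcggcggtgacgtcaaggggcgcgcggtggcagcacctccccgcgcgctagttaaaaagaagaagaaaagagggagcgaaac
Searched on both strands, GACCACCCA was in 0 of the 7 members that the RefSeq table holds (Ihh, Ptch1, Smo, Cdon, Hhip, Gli2 and Gli3) and in 0.225% of all 32851 windows of this length. CCACCC, which is part of the longer motif, was in 5 of the 7 (Ihh, Smo, Hhip, Gli2 and Gli3) and in 28.1% of all windows. These 5 windows were 67.2% to 76.0% G and C, and the set of all windows was not matched for this. The Gli3 window holds 250 exonic bases and the Cdon window 124. The Hhip match starts 158 bases before the start site, and the Ptch1 window holds no match.

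Total counts were 12631266 to 14950639 per Naive library and 14339804 to 18425596 per Stromal library, of which mitochondrial genes took 32.4% to 49.0% and 35.1% to 45.7%. On the first principal component of all genes tested (34.0% of the variance), Naive 3, 4 and 5 lay at 102 to 107, Naive 1, 2 and 6 at −3.82 to 6.66 and the Stromal libraries at −64.6 to −31.1. The header of the file of the library labelled Stromal 6 names its alignment N8, where the other 11 files carry the name of their own label. Its summed pericyte markers, 26.1 CPM (counts-per-million, on the library sizes scaled for the test), lay with the other Stromal libraries (12.2 to 31.2 CPM) and far below Naive (942 to 1669 CPM). Results that rest on Naive 3, 4 and 5 or on Stromal 6 are given with and without them. The fibroblast markers Dcn and Pdgfra and the sorted gene Pdgfrb were present in every library, with medians of 2270, 501 and 104 CPM in Naive and 1752, 418 and 57.9 CPM in Stromal. The 10 fibroblast markers summed to 23720 to 40296 CPM in Naive and 15641 to 23591 CPM in Stromal, so that every Stromal library, sorted as fibroblasts alone, was below every Naive library. The part of this difference in the comparisons between groups was not tested. All levels are from bulk samples, in which fewer cells of a type and less RNA per cell cannot be told apart.

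Of the 9 members, Gli1 alone passed the test between the groups, and it was lower in Naive. The transducer Smo and the factors Gli2 and Gli3 were detected in every library, with overlapping groups and no call. No Hedgehog ligand was detected beyond 2 counts. Ptch1 and Boc differed widely between single libraries of the same group, and neither passed. In numbers, 8 of the 9 members were abundant enough to be tested, 0 were higher in Naive and 1 was lower (edgeR quasi-likelihood test, Benjamini-Hochberg adjusted p below 0.05 over 14523 genes). Among all genes tested, 5.41% passed, 4.55% higher and 0.854% lower in Naive. The median log2 fold change, Naive minus Stromal, was −0.27 over the 8 members and 0.00 over all genes tested. At an unadjusted p below 0.05 stood 4 of the 8 (Gli1, Ptch1, Boc and Gli3), against 19.9% of all genes. The groups separated without overlap for 0 of the 8, against 2.86% of all genes with Naive above and 0.806% with Stromal above.

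**Figure D1:**
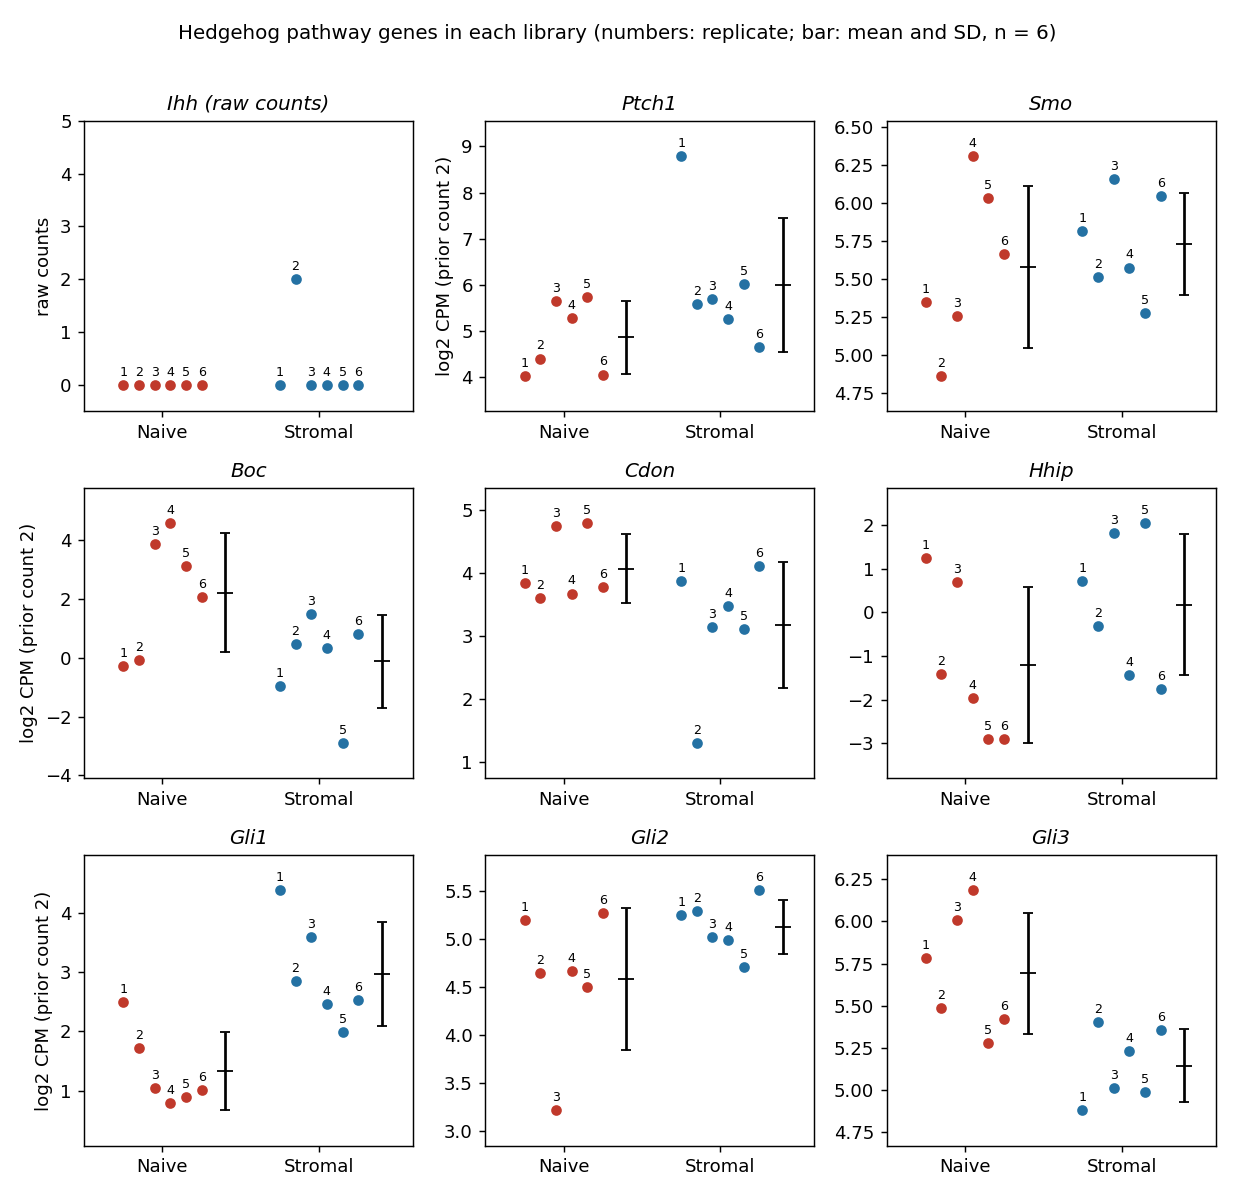
Level of each Hedgehog pathway gene in each library, as log2 CPM with a prior count of 2 (raw counts for Ihh); points are libraries labelled by replicate number, and bars give the mean and SD of 6. Stromal 1 stands apart for Ptch1, and Boc is highest in Naive 3, 4 and 5.

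Compared per kilobase of exon, Smo had the highest median level of the members in both groups. In Naive the median level in RPKM (CPM divided by the exon length in kilobases) was 8.13 for Smo, 5.19 for Gli3, 3.66 for Gli2, 3.40 for Ptch1, 1.80 for Cdon, 1.43 for Boc, 0.518 for Gli1 and 0.0373 for Hhip. In Stromal it was 9.26 for Smo, 5.65 for Ptch1, 5.12 for Gli2, 3.62 for Gli3, 1.74 for Gli1, 1.28 for Cdon, 0.265 for Boc and 0.224 for Hhip. Ihh had a median of 0 in both. The ranges of neighbours in these orders overlapped over the libraries in every case. Within a library, Smo was above Gli3 in 6 of 6 Naive libraries and above Ptch1 in 4 of 6 Stromal libraries. With Stromal 1 included, the mean level in Stromal was higher for Ptch1 (12.8 RPKM) than for Smo (9.66 RPKM). Gli3 was above Gli2 in 5 of 6 Naive libraries, and Gli2 was above Gli3 in 6 of 6 Stromal libraries, a change of order that was not tested.

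Ihh (ENSMUSG00000006538, chromosome 1, 74945315 to 74951672), the ligand of the uterus, had 0 counts in all Naive libraries and 2 counts in Stromal, both in Stromal 2. It did not pass the filter on low counts. An exact two-sided permutation test on log2 CPM gave p = 1.00 over the 924 assignments of labels. With counts in only 1 library, every assignment gives the same size of difference. This p was therefore fixed in advance and says nothing about the groups. A count of 0 allows up to 3 counts, which is 0.163 to 0.238 CPM by a library's own total, and this limit covers counting error only. The epithelial genes Epcam, Krt8 and Krt18, of the cells that make Ihh, had medians of 1.01, 0.308 and 0.0719 CPM in Naive and 1.97, 0.262 and 0.0295 CPM in Stromal. All 12 epithelial markers summed to 2.23 to 18.1 CPM in Naive and 9.33 to 17.4 CPM in Stromal, and none of the 12 was at 0 in every library. The other ligand genes, Shh and Dhh, had no count in any library.

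Ptch1 (ENSMUSG00000021466, chromosome 13, 63508328 to 63573598), the receptor that restrains Smoothened and a direct target of the pathway, stood at a lowest, median and highest level of 16.01, 29.7 and 53.0 CPM in Naive and 24.8, 49.4 and 443 CPM in Stromal. The highest value was Stromal 1 with 7012 counts, 6.88 times the next library. The other Stromal libraries reached 64.5 CPM at most. Naive 1, 2 and 6 were at 16.01 to 20.9 CPM, below every Stromal library, while Naive 3, 4 and 5 were at 38.5 to 53.0 CPM, within the Stromal range. The log2 fold change was −1.78 (SE 0.73, edgeR adjusted p = 0.197). It was −0.48 without Stromal 1 (adjusted p = 0.485) and −2.67 without Naive 3, 4 and 5 (adjusted p = 0.376). In Stromal 1 the summed epithelial, endothelial and pericyte markers were 13.98, 55.1 and 12.5 CPM, against 9.33 to 17.4, up to 55.0 and up to 31.2 CPM in the other Stromal libraries, while its fibroblast markers, at 15641 CPM, were the lowest of all (20688 to 23591 CPM in the other 5). The part of any of these lists in the Ptch1 value was not tested.

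Smo (ENSMUSG00000001761, chromosome 6, 29735503 to 29761365), the membrane protein that carries the signal to the Gli factors, was at 29.0, 45.7 and 79.3 CPM in Naive and 38.6, 52.0 and 71.3 CPM in Stromal (lowest, median and highest). The groups overlapped almost fully, with a log2 fold change of −0.10 (SE 0.24, edgeR adjusted p = 0.863). The ratio of Ptch1 to Smo per kilobase within a library, which does not depend on scaling between libraries, was 0.208 to 0.844 in Naive (median 0.388) and 0.241 to 5.05 in Stromal (median 0.590). Its difference did not pass an exact permutation test (two-sided p = 0.182, adjusted p = 0.199 over 3 ratios).

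Boc and Cdon, related cell-surface proteins that bind Hedgehog ligands and aid Patched, differed in how steady they were. Boc (ENSMUSG00000022687, chromosome 16, 44485045 to 44558897) was at 0.696, 6.37 and 23.8 CPM in Naive and 0, 1.18 and 2.70 CPM in Stromal. Naive 3, 4 and 5 lay at 8.65 to 23.8 CPM and Naive 1, 2 and 6 at 0.696 to 4.10 CPM, so that the latter overlapped the Stromal libraries. The log2 fold change was 2.88 (SE 0.92, edgeR adjusted p = 0.0851) and 0.64 without Naive 3, 4 and 5 (adjusted p = 0.880). It passed without Naive 1 alone (3.12, adjusted p = 0.0402), without Naive 2 alone (3.12, adjusted p = 0.0449) and with DESeq2 (2.87, adjusted p = 0.00562). Summed pericyte markers were 1431 to 1669 CPM in Naive 3, 4 and 5 and 942 to 1268 CPM in Naive 1, 2 and 6, and summed fibroblast markers 23720 to 27639 and 37866 to 40296 CPM. The part of either in the Boc level was not tested.

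Cdon (ENSMUSG00000038119, chromosome 9, 35421128 to 35507652) was at 12.0, 13.9 and 27.6 CPM in Naive and 2.32, 9.86 and 17.1 CPM in Stromal. Its log2 fold change was 0.78 (SE 0.39, edgeR adjusted p = 0.279), and the groups overlapped. The ratio of Boc to Cdon per kilobase was 0.0891 to 3.25 in Naive and 0.00737 to 0.939 in Stromal (exact two-sided permutation p = 0.199, adjusted p = 0.199). Over the libraries of a group the SD of log2 CPM was 2.03 in Naive and 1.58 in Stromal for Boc, and 0.55 and 1.00 for Cdon, where the median over all genes tested was 0.62 and 0.59.

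Hhip (ENSMUSG00000064325, chromosome 8, 79966115 to 80058006), a membrane protein that captures ligand and limits the pathway, was sparse. It had 0 to 29 counts in Naive libraries and 3 to 55 in Stromal libraries, or medians of 0.183 and 1.10 CPM. Naive 1 and 3 held most of the Naive counts, and Stromal 3 and 5 most of the Stromal ones. The log2 fold change of −1.27 (SE 1.06, edgeR adjusted p = 0.565) was close to its error. The SD of log2 CPM within a group, 1.80 in Naive and 1.62 in Stromal, was above the median of all genes tested.

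Gli1 (ENSMUSG00000025407, chromosome 10, 127329889 to 127341589), the factor whose transcription reports an active pathway, was lower in Naive. It was at 1.596, 1.90 and 5.49 CPM in Naive and 3.86, 6.38 and 20.7 CPM in Stromal (lowest, median and highest), from 21 to 71 and 53 to 327 counts. Naive 1 was the only Naive library above the lowest Stromal library, Stromal 5, and Stromal 1 and 3 were the highest. The means were 2.63 ± 1.51 and 9.09 ± 6.31 CPM (SD, n = 6 each), with a log2 fold change of −1.79 (SE 0.47, edgeR adjusted p = 0.0349). The call was lost without Naive 3, 4 and 5 (−1.39, adjusted p = 0.311), without Naive 3, 4, 5 or 6 or Stromal 1, 2 or 3 alone (adjusted p = 0.0541 to 0.0963) and with limma-voom (adjusted p = 0.0550). It held without Stromal 6 (−1.90, adjusted p = 0.0406).

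Gli2 (ENSMUSG00000048402, chromosome 1, 118834132 to 119053619), the main activator of the pathway, was at 9.15, 25.1 and 38.5 CPM in Naive and 26.1, 35.2 and 45.4 CPM in Stromal. Naive 3 was lowest, and the log2 fold change was −0.44 (SE 0.28, edgeR adjusted p = 0.413). Gli3 (ENSMUSG00000021318, chromosome 13, 15463235 to 15730026), the main repressor, was at 38.7, 49.8 and 72.55 CPM in Naive and 29.3, 34.7 and 42.2 CPM in Stromal. Here 5 of 6 Naive libraries lay above every Stromal library, with a log2 fold change of 0.57 (SE 0.19, edgeR adjusted p = 0.0930).

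**Figure D2:**
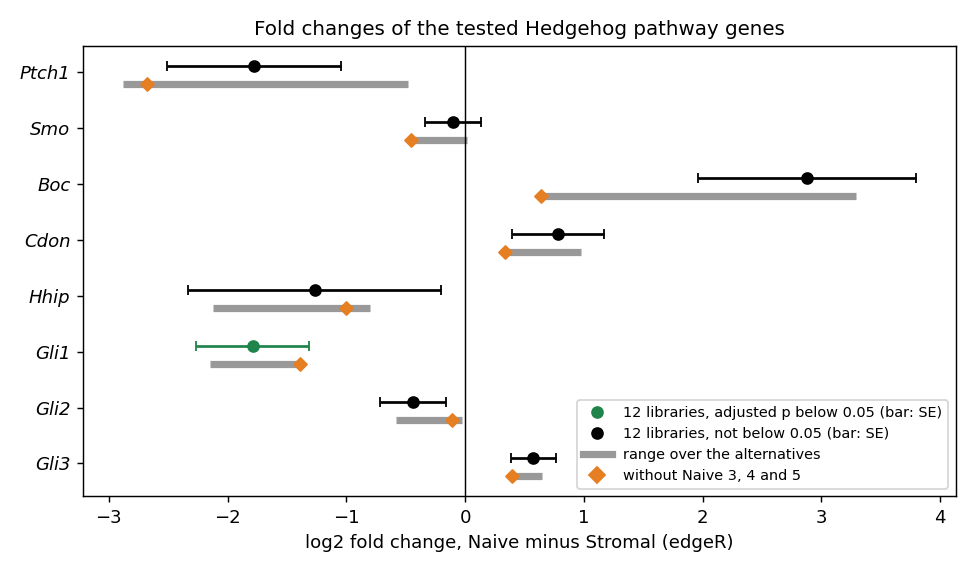
Log2 fold change, Naive minus Stromal, of the 8 tested Hedgehog pathway genes: points with bars are edgeR estimates with SE over 12 libraries, grey bars the range over the alternative settings and diamonds the fit without Naive 3, 4 and 5. Gli1 at −1.79 is the member that passed, and the Boc estimate moves from 2.88 to 0.64 without those libraries.

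Taken as a share of all Gli transcripts per kilobase, Gli1 made up 3.80% to 12.0% in Naive (median 6.21%) and 12.5% to 39.6% in Stromal (median 15.5%). The groups did not overlap, although the nearest pair, Naive 1 at 12.0% and Stromal 6 at 12.5%, was close. Without Stromal 6 the lowest Stromal share was 12.99%. The log2 ratio of Gli1 to Gli2 and Gli3 together differed by −1.75 between the means (exact two-sided permutation p = 0.00216, the smallest the design allows, and adjusted p = 0.00649 over 3 ratios). Without Naive 3, 4 and 5 the difference was −1.40 and did not pass (exact permutation p = 0.0595, adjusted p = 0.179). That design has fewer libraries and so fewer assignments of labels. This ratio uses the same Gli1 counts as the fold change above and is not a separate line of evidence.

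**Figure D3:**
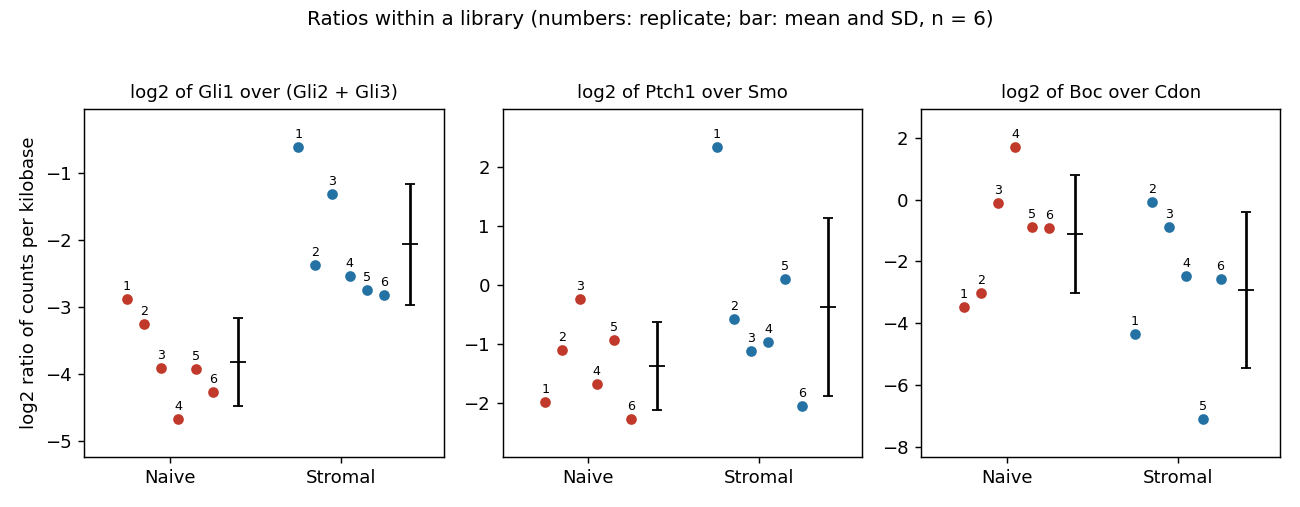
Log2 ratios of counts per kilobase within each library for Gli1 over Gli2 and Gli3 together, Ptch1 over Smo and Boc over Cdon; points are libraries labelled by replicate number, and bars give the mean and SD of 6. The 6 Naive libraries lie below the 6 Stromal libraries for Gli1, and the groups overlap for the other two.

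The tested genes whose profile over the 12 libraries was most like that of Gli1 were Bmp7, Cdh5, Ftsj3, Set and Cxxc5. Likeness was the root mean square difference of log2 CPM after each gene was centred on its mean, over the 6543 named genes whose mean log2 CPM reached 3. It was 0.376 for Bmp7, a bone morphogenetic protein, 0.472 for Cdh5, 0.519 for Ftsj3, 0.562 for Set and 0.562 for Cxxc5, where the median over the genes compared was 1.13. Bmp7 was at 17.9, 21.8 and 46.2 CPM in Naive and 38.1, 62.6 and 94.5 CPM in Stromal. Cdh5, the cadherin of endothelial cells, was at 2.86, 4.96 and 7.66 CPM in Naive and 5.05, 9.65 and 39.6 CPM in Stromal. The 10 endothelial markers, which include Cdh5, summed to 26.4 to 44.5 CPM in Naive (median 34.4) and 33.8 to 55.1 CPM in Stromal (median 37.8). Cldn5 was at 0 throughout. The part of such RNA in the Gli1 level was not tested. Of the members, Gli2 (0.918) and Ptch1 (1.09) were the nearest to Gli1.

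Of 63 other Hedgehog genes sorted by role, 53 were tested, 1 was higher in Naive (Gas1) and 1 lower (Wnt4), against 5.41% of all genes. The median log2 fold change was 0.11. Of genes for other ligands and for ligand release, 0 of 5 tested passed (median 0.38). Scube1, a secreted protein of the family that helps to release Hedgehog ligands, was at 27.6, 166 and 308 CPM in Naive and 329, 460 and 559 CPM in Stromal. Its groups did not overlap, with Stromal above, as for 0.806% of all genes, and Naive 3, 4 and 5 were at 27.6 to 56.8 CPM. Its log2 fold change of −1.46 (SE 0.57, edgeR adjusted p = 0.175) did not pass, while −0.68 without those 3 libraries did (adjusted p = 0.0469), as did limma-voom with all libraries (−2.09, adjusted p = 0.0130). With Stromal 6 left out as well as Naive 3, 4 and 5, Scube1 again did not pass (−0.65, adjusted p = 0.0779). Scube2, of the same family and named after its values were seen, differed the other way, by 2.37 (SE 0.79, edgeR adjusted p = 0.0941), and passed with DESeq2. Its median was 4.86 CPM in Naive and 0.946 CPM in Stromal, and the groups overlapped. Disp1, which exports the ligands, differed by 0.38 (edgeR adjusted p = 0.636).

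Among other reception genes, 1 of 3 tested was higher (Gas1 alone), against 4.55% of all genes. Gas1, a membrane-anchored coreceptor of the ligands, was at 17.6, 32.4 and 77.3 CPM in Naive and 6.16, 13.3 and 22.3 CPM in Stromal (log2 fold change 1.52, SE 0.39, edgeR adjusted p = 0.0321). Naive 3, 4 and 5 were at 40.6 to 77.3 CPM and Naive 1, 2 and 6 at 17.6 to 24.3 CPM, overlapping the Stromal range. Without Naive 3, 4 and 5 Gas1 differed by 0.58 and was not called (adjusted p = 0.591). Its call was also lost without Naive 3, 4 or 5 or Stromal 2, 3, 4 or 5 alone (adjusted p = 0.0512 to 0.0968) and when libraries were scaled by their totals alone (adjusted p = 0.0547). Gpc3, a glypican that binds Hedgehog ligands, differed by 0.33 (edgeR adjusted p = 0.632).

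Genes that control Smoothened (0 of 9 called, median 0.27), Gli processing (0 of 13, median −0.02) and the primary cilium (0 of 10, median 0.18) had no call in either direction by edgeR, against 5.41% of all genes. At an unadjusted p below 0.05 stood 1, 1 and 2 of them, against 19.9% of all genes. The most abundant per kilobase were Efcab7 (0.50, edgeR adjusted p = 0.396) and Mosmo (0.27, adjusted p = 0.472) for Smoothened. For Gli processing they were Prkar1a, a regulatory subunit of protein kinase A (−0.33, edgeR adjusted p = 0.286), and Csnk1a1, casein kinase 1 alpha (−0.19, adjusted p = 0.485). Sufu, which holds Gli proteins inactive and was named after its values were seen, differed by −0.93 (SE 0.31, edgeR adjusted p = 0.1000) and passed with DESeq2. The most abundant for the cilium were the kinesin gene Kif3a (0.11, edgeR adjusted p = 0.871) and the small GTPase gene Arl13b (0.01, adjusted p = 0.983), whose sign changed with the scaling.

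Genes that respond to Hedgehog signals in other tissues were in part absent. Foxf2, Foxl1 and Foxd1 had no count, and 0 of 6 tested passed (median 0.61), against 5.41% of all genes. At an unadjusted p below 0.05 by edgeR stood 4 of the 6, with 3 higher and 1 lower in Naive, against 19.9% of all genes. Bcl2 differed by 0.80 (edgeR adjusted p = 0.165) and Osr1 by −0.19 (adjusted p = 0.832). Of the progesterone and Ihh axis of the uterus, 0 of 7 tested genes were higher and 1 was lower (median 0.10), against 4.55% and 0.854% of all genes. Wnt4, a ligand needed for decidualization, was at 1.93, 4.34 and 6.96 CPM in Naive and 8.005, 10.8 and 32.1 CPM in Stromal. Its groups did not overlap, with Stromal above, as for 0.806% of all genes. Its log2 fold change was −1.74 (SE 0.41, edgeR adjusted p = 0.0181). Without Naive 3, 4 and 5 it was −1.36 and not called (adjusted p = 0.199). The progesterone receptor gene Pgr, upstream of Ihh, was at 400.0 to 500.5 CPM in Naive 3, 4 and 5, 1466 to 1629 CPM in Naive 1, 2 and 6 and 988.7 to 1449 CPM in Stromal (log2 fold change −0.29, edgeR adjusted p = 0.717). The oestrogen receptor gene Esr1 differed by −0.61 (adjusted p = 0.0937), and passed when libraries were scaled by their totals alone (−0.73, adjusted p = 0.0354) and without Naive 2 (−0.72, adjusted p = 0.0450). Nr2f2, introduced above as a stromal gene that responds to Ihh, was added after its values were seen. It was at 110, 161 and 259 CPM in Naive and 67.2, 108 and 138 CPM in Stromal. The groups of Nr2f2 overlapped, with a log2 fold change of 0.67 (SE 0.23, edgeR adjusted p = 0.102).

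**Figure D4:**
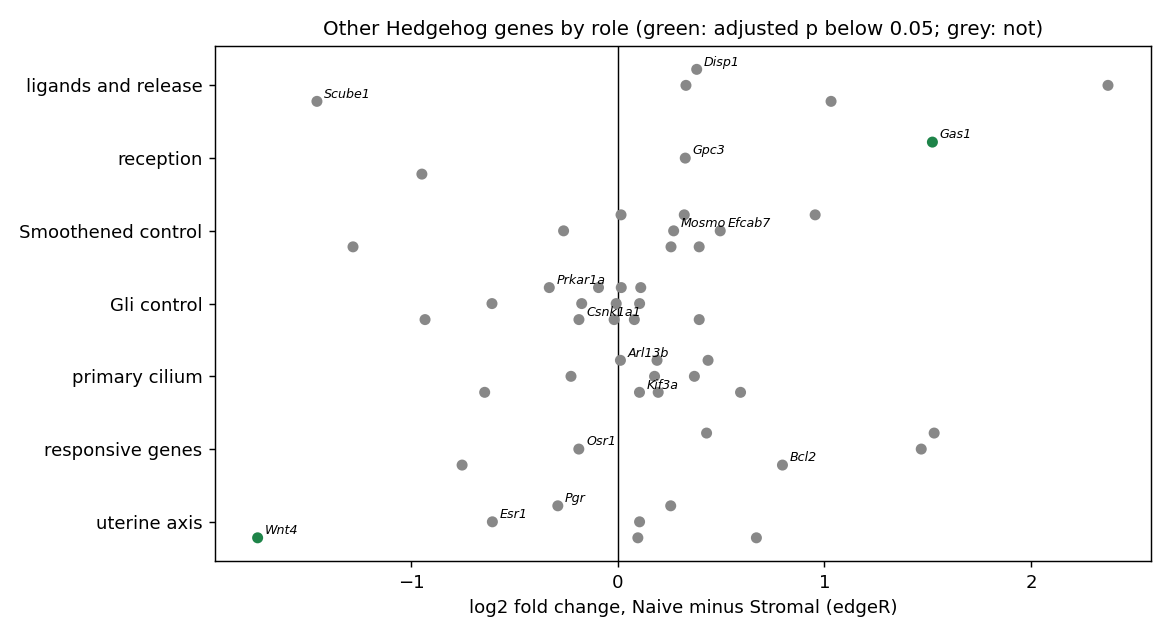
Log2 fold change, Naive minus Stromal, of the 53 tested other Hedgehog genes, in rows by role; each point is a gene, green where edgeR's adjusted p is below 0.05. Gas1 at 1.52 and Wnt4 at −1.74 are the genes that passed.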

How the data were processed

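The authors deposited raw read counts per gene for 12 libraries. Per the file headers, these counts are paired-end fragments over exons, counted by featureCounts 1.6.4 without strand, with a mapping quality of at least 10, for Ensembl release 84 on GRCm38. Cutadapt and SAMtools were used, per the submitters' processing notes, and no source used here names the aligner. The table of the series equalled the single files in 12 of 12 libraries. Symbols came from a reference table of gene names, matched by identifier for 47224 of 47729 genes. Without strand, reads of overlapping genes cannot be told apart: Hhip shares 3.57% of its exonic bases with another gene, Gli3 1.96% and Gli1 1.50%.

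Counts were filtered with filterByExpr, scaled by TMM and tested with edgeR 4.0.16 (quasi-likelihood F test, R 4.3.3) without covariates, two-sided, with Benjamini-Hochberg adjustment over 14523 genes at 0.05. SE is the size of the log2 fold change over the root of F. CPM use TMM-scaled library sizes, and ratios use counts plus 0.5. The code was tested on simulated data. No label ties a library to 1 mouse (the series names 12), so p-values measure the spread between libraries, which may be technical. Within groups Spearman correlations were 0.851 to 0.937, and chi-square per degree of freedom was at least 19.5, so no pair agreed within sampling noise. The members and gene lists were chosen with earlier results of these data known. Named are all members, every called gene of the role lists with the 2 most abundant per list, the 5 genes most like Gli1 and 3 epithelial markers. Alternatives were RLE scaling, total library size, no mitochondrial genes, no filter, DESeq2 1.42.0, limma-voom (limma 3.58.1), a replicate block and each library left out. Fits without Naive 3, 4 and 5, and also without Stromal 6, were added after seeing the data. Of the other marker lists, leukocyte markers summed to 0.904 to 10.0 CPM, mesothelial to 0 to 9.29 CPM (Msln and Upk3b at 0), Schwann to 1.41 to 8.78 CPM (Foxd3 at 0) and smooth muscle to 45.7 to 94.8 CPM in Stromal and 189 to 405 CPM in Naive.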

Additional observations from a re-analysis of the deposited data

Results flagged for a closer look

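Of 54 groups of 6 values examined (named genes and ratios), 5 held a library whose gap to the nearest other exceeded 0.625 of the group's range, where chance gives about 1 in 20. Ptch1 in Stromal 1 was at 8.79 log2 CPM, against 4.64 to 6.01 in the other Stromal libraries. Cdon in Stromal 2 was at 1.29 log2 CPM, against 3.11 to 4.11. Gli2 in Naive 3 was at 3.21 log2 CPM, against 4.50 to 5.27 in the other Naive libraries. Gpc3 in Stromal 5 was at 1.64 log2 CPM, against 2.58 to 3.11. Ihh in Stromal 2 was at −2.02 log2 CPM, against −2.91 for a count of 0, and rests on 2 counts.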

How the results depend on the processing

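The number of members called was 1 with all libraries and 0 to 2 with single libraries left out. It was 2 with DESeq2 (Boc and Gli1), 0 with limma-voom, 0 without Naive 3, 4 and 5, and 0 when Stromal 6 was left out as well. For the other Hedgehog genes, 2 with all libraries, it was 1 to 3 with single libraries left out, 4 with DESeq2 (Gas1, Scube2, Sufu and Wnt4), 1 with the replicate block, 1 without Naive 3, 4 and 5 and 0 also without Stromal 6. Over all genes, 785 became 1381 with DESeq2, 467 to 970 with single libraries left out (467 without Naive 3 and 521 without Naive 4), 295 without Naive 3, 4 and 5 and 286 also without Stromal 6. Higher genes were 661 of 785, and 505 of 762 with total library size only. The cause of these changes was not tested, other than that leaving libraries out leaves fewer samples. The sign of the Gli1, Ptch1, Boc, Cdon, Hhip, Gli2 and Gli3 fold changes was the same under every alternative that gave a value. DESeq2 gave Ptch1 no adjusted p, and Hhip fell below the filter without mitochondrial genes. Without Naive 3, 4 and 5 and Stromal 6, Gli1 differed by −1.50 (adjusted p = 0.294) and Wnt4 by −1.45 (adjusted p = 0.193).

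The sign reversed with single libraries left out for Smo (−0.28 to 0.014, without Naive 2), Osr1 (−0.45 to 0.031, without Stromal 5), Kif3a (−0.023 to 0.23, without Naive 3 or 5) and Arl13b (−0.077 to 0.12, without 6 of the 12 libraries). For Arl13b it was also −0.0066 with RLE scaling, −0.082 with total library size, −0.014 without mitochondrial genes and −0.0069 with DESeq2. Without Naive 3, 4 and 5 it reversed for Kif3a (−0.50), Bcl2 (−0.049) and Pgr (0.33), and also without Stromal 6 (−0.53, −0.0063 and 0.27, with Efcab7 at −0.0064). None of these reversed values passed the test.

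The Gli1 ratio kept its adjusted p below 0.05 with 2 added to counts and without any single library (−1.94 to −1.46). It did not pass without Naive 3, 4 and 5 (−1.40), nor also without Stromal 6 (−1.55). Both designs have fewer libraries, and so fewer assignments of labels and a higher smallest p. Whether the libraries left out or the smaller design lost the call was not tested. With the replicate block the difference of the Gli1 ratio was −1.75 (exact permutation, adjusted p = 0.0938), where 6 pairs allow no raw p below 0.03125. No label says whether a replicate number marks a shared mouse. Same-numbered deviations correlated at −0.139 to 0.089, and 2 of 6 numbers correlated best with themselves. Low correlations of this kind cannot settle whether the libraries are paired. With the replicate block Gli1 differed by −1.70 (adjusted p = 0.0283) and 582 genes were called, and Gas1 was not (adjusted p = 0.0734). Depth limits Ihh, at 2 counts in all.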

Other observations

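Among the 7277 tested genes whose mean log2 CPM reached 3, Ptch1 was the only one that Stromal 1 held at 4 times or more the level of the next library, at 443 against 64.5 CPM. Stromal 4 and Stromal 5 each held 1 such gene, and the other 9 libraries held 0. Of the other feedback genes in Stromal 1, Gli1 was 1.74 times the highest other library, whereas Hhip, at 1.52 CPM, was below Stromal 5 (4.00 CPM), Stromal 3 (3.40 CPM) and Naive 1 (2.24 CPM). These values were looked up after the Ptch1 level was seen.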
